A study of Mus musculus with 6 samples.

Results

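The genes described here carry glucose into brain cells and break it down: 43 listed genes of glucose transport, glycolysis, lactate formation, the pyruvate dehydrogenase complex, the tricarboxylic acid (TCA) cycle and the malate-aspartate shuttle. They were chosen by name, and 40 of them had an array row with a single gene symbol, out of 19938 genes measured in that way. The other 3 listed genes, Gpi1, Gapdh and Eno1, were not analysed here as members. All 40 were tested, since no filter on low values was used. The tissue was adult forebrain cortex of C57BL/6 mice, with 1 Affymetrix whole-transcript array per animal. Animals labelled Dicer KO had the genotype CamKII-Cre/+;Dicer flox/flox (3 arrays). Controls (3 arrays), called littermates in the labels, had 1 of a pair of genotypes. They carried either Cre with a single floxed allele (CamKII-Cre/+;Dicer flox/+) or both floxed alleles and no Cre (+/+;Dicer flox/flox), and the labels do not say which animal had which. No age beyond "adult" was used here. The CamKII promoter drives Cre in excitatory forebrain neurons, so interneurons, glia and vessel cells of the same tissue keep the gene.

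Glucose enters the brain through Slc2a1 (GLUT1) in vessels and glia and enters neurons mainly through Slc2a3 (GLUT3). Glycolysis converts it to pyruvate in the cytosol. Pyruvate is then either reduced to lactate or enters the mitochondrion, where the pyruvate dehydrogenase complex feeds it into the TCA cycle. Several steps have alternative isozymes or subunits that differ between neurons, glia and peripheral tissues. Dicer cuts microRNA precursors into mature microRNAs, so its loss acts on many transcripts.

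Values are log2 intensities as deposited. A difference is the mean of the arrays labelled Dicer KO minus the control mean, with the moderated standard error of limma. A gene is called where limma's p, adjusted by Benjamini-Hochberg over all 19938 genes, is under 0.05. Array medians lay between 7.13 and 7.22 over all rows, and 3 animals per group set the precision. The Dicer1 row, which gives no check of the labels because its position relative to the deleted part is not known, read 9.58, 9.68 and 9.46 on the arrays labelled Dicer KO and 9.17, 9.21 and 9.18 on the controls. The signal of that row was not lower in the animals labelled Dicer KO, at a difference of 0.39 ± 0.087 (SE, limma adjusted p = 0.102). Markers of excitatory neurons were high in every array, with 11 of 12 listed genes measured and a mean level of 10.18 to 10.26 against 10.26 to 10.36 in controls. Markers of the olfactory bulb stood out in control array 1, at 0.84 above the control mean, while the other 5 arrays lay between -0.51 and -0.40.

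Most members lay slightly lower in the cortex labelled Dicer KO, by amounts that were not separable from the spread between animals after adjustment. Of the 40 members, 31 had a difference below 0, and the median difference was -0.13, against -0.0092 over all genes tested, of which 52.7% lay below 0. Limma called 0 members, against 56 of all genes (0.281%), and 14 members had an unadjusted p under 0.05. Of these, 10 were lower (25.0% of the members, against 7.39% of all genes) and 4 were higher (10.0%, against 7.01%). In 13 members all arrays labelled Dicer KO lay below all control arrays (32.5%, against 11.0% of all genes), and in 3 they lay above (7.50%, against 9.30%). Without control array 1 or 2, 7 members had an unadjusted p under 0.05 and 5 of them were lower. The higher count of 4 was 2 without array 2 or 3 labelled Dicer KO or without control 1 or 2. In bulk tissue, fewer cells of a type and less RNA per cell cannot be told apart.

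**Figure D1:**
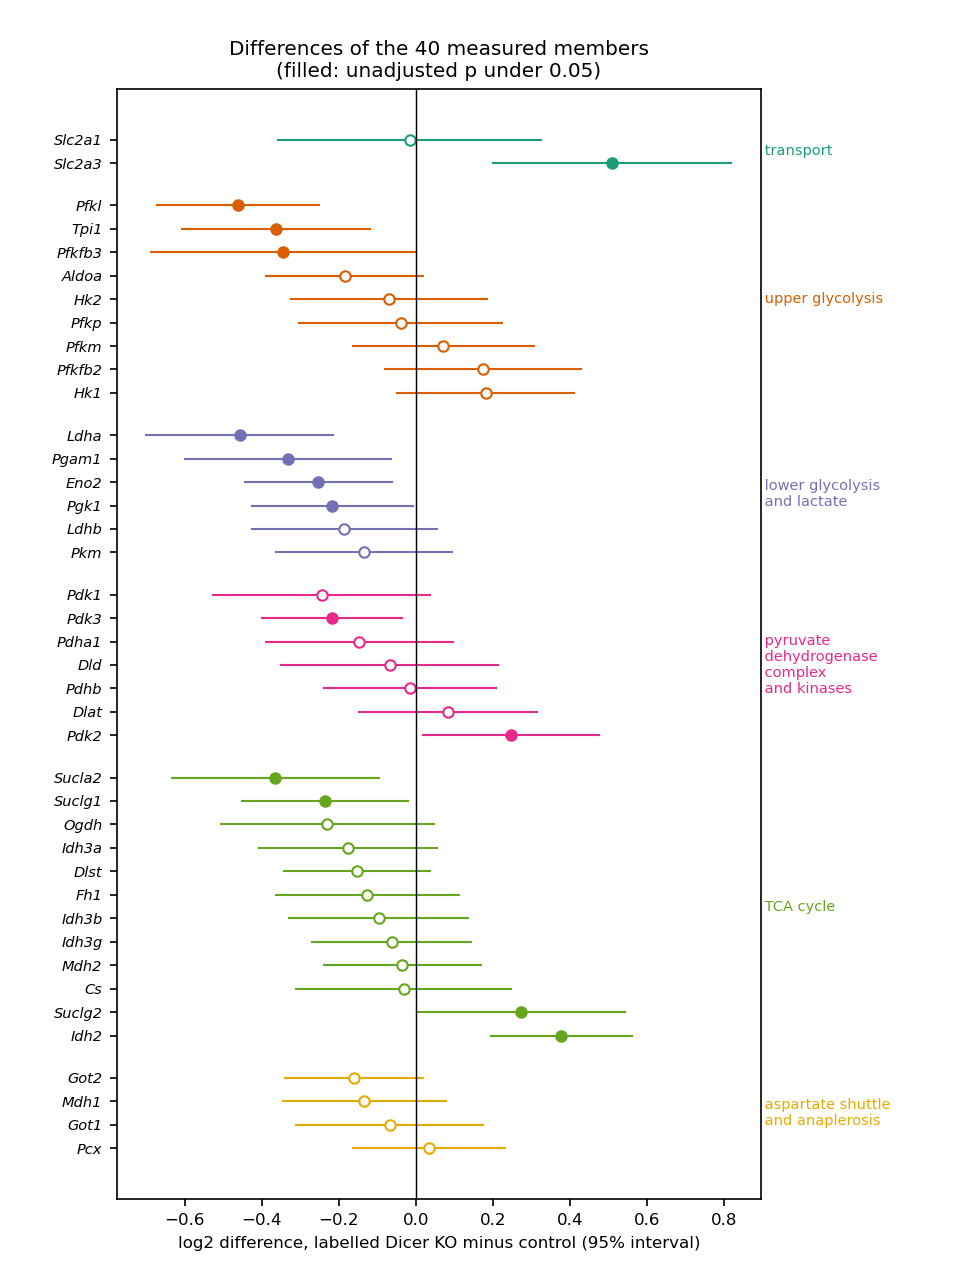
Log2 difference (labelled Dicer KO minus control, x axis) of each of the 40 members, grouped by role, with its 95% interval from limma; filled points have an unadjusted p under 0.05. The 6 genes of lower glycolysis and lactate formation all sit left of 0, while Slc2a3 at 0.51 and Idh2 at 0.38 sit farthest right.

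Of the 2 glucose transporters, the neuronal one lay higher and the vessel and glial one overlapped. Slc2a3 read 11.53, 11.65 and 11.12 on the arrays labelled Dicer KO and 10.83, 10.97 and 10.97 on the controls. All 3 animals labelled Dicer KO lay above every control, though the third lay only just above. The difference of Slc2a3 was 0.51 ± 0.14 (SE, limma adjusted p = 0.146), or 1.42-fold, the largest among the members. Without the third array labelled Dicer KO the difference was 0.67 and was called (adjusted p = 0.038), and with arrays weighted by quality it was 0.60 and called (adjusted p = 0.0125). Over the 15 alternatives the adjusted p of Slc2a3 ran from 0.0125 to 0.402. Slc2a1 read 11.14, 11.18 and 10.66 against 11.04, 11.16 and 10.82, so array 3 was the lowest in both groups and they overlapped. Its difference was -0.016 ± 0.15 (adjusted p = 0.978), with a 95% interval from -0.36 to 0.33.

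Upper glycolysis, from glucose phosphorylation to the triose phosphates, had 9 members: 3 were lower with an unadjusted p under 0.05 (Pfkl, Tpi1 and Pfkfb3), none was higher in that sense, and the median difference was -0.07. Over all genes 7.39% were lower and 7.01% higher at that level, and 9 genes are too few to set against these shares. Pfkl, the liver-type subunit of phosphofructokinase, which commits sugar to glycolysis, read 9.78, 9.54 and 9.65 on the arrays labelled Dicer KO and 10.07, 10.10 and 10.18 on the controls. Every animal labelled Dicer KO was below every control by more than either group's own range. The difference of Pfkl was -0.46 ± 0.092 (SE, limma adjusted p = 0.0798), the lowest adjusted p among the members, or 1.38-fold lower. The other phosphofructokinase subunits did not separate. Pfkm, the muscle-type subunit, read 12.31, 12.47 and 12.27 against 12.13, 12.29 and 12.42 (difference 0.071 ± 0.10). Pfkp, the platelet-type subunit, read 11.37, 11.31 and 11.68 against 11.41, 11.46 and 11.61 (difference -0.040 ± 0.12).

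Pfkfb3 and Pfkfb2 make and remove fructose 2,6-bisphosphate, the activator of phosphofructokinase. Pfkfb3 read 8.02, 8.04 and 8.61 on the arrays labelled Dicer KO and 8.54, 8.55 and 8.60 on the controls. The first and second arrays labelled Dicer KO lay below all controls and the third lay level with the highest control. The difference of Pfkfb3 was -0.34 ± 0.15 (SE, limma adjusted p = 0.345). Without array 3 labelled Dicer KO it was -0.54 and was called (adjusted p = 0.042), with array weights -0.50 and called (adjusted p = 0.0308), and over the 15 alternatives the adjusted p ran from 0.0308 to 0.641. Pfkfb2 read 9.18, 9.48 and 9.22 against 9.19, 9.21 and 8.96, with a difference of 0.17 ± 0.11 (adjusted p = 0.534). Its groups overlapped.

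Hexokinases phosphorylate glucose as it enters the cell. The Hk1 row chosen by its mean read 12.99, 13.08 and 13.23 against 12.83, 12.88 and 13.05, a difference of 0.18 ± 0.10 (adjusted p = 0.469). That row carries a single transcript record, which rows naming both Rpl17 and Hk1 also carry. The 16 such rows, not counted as separate measurements, had differences from 0.18 to 0.25. Whether the chosen row reads Hk1 or Rpl17, a ribosomal protein gene, cannot be told apart. The other Hk1 row, which lists RefSeq transcripts, read 10.65, 10.56 and 10.65 against 10.77, 10.77 and 10.71, with a difference of -0.13 ± 0.080 and groups that did not overlap. Of its 8 transcript records, 1 is likewise shared with rows that name several genes. With it, 32 of the 40 members would lie below 0. Hk2, the insulin-regulated isozyme of muscle and fat, read 7.11, 7.25 and 7.36 against 7.22, 7.20 and 7.51, a difference of -0.069 ± 0.11.

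Tpi1, which interconverts the triose phosphates, read 12.20, 12.17 and 11.87 on the arrays labelled Dicer KO and 12.38, 12.42 and 12.53 on the controls. The groups did not overlap, and the third array labelled Dicer KO was the lowest. The difference of Tpi1 was -0.36 ± 0.11 (SE, limma adjusted p = 0.184). Aldoa, the aldolase that splits fructose 1,6-bisphosphate, lay lower without overlap as well, by a smaller amount (12.92, 12.94 and 12.78 against 13.07, 12.98 and 13.15; difference -0.18 ± 0.090).

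Lower glycolysis and lactate formation was the role in which every measured member lay below 0: 6 of 6, with a median of -0.23, 4 with an unadjusted p under 0.05 (Ldha, Pgam1, Eno2 and Pgk1) and 5 without overlap. Over all genes, 52.7% lay below 0, 7.39% were lower at that level and 11.0% were lower without overlap, and 6 genes are too few to call the count particular to this role. Averaged over these 6 genes, the arrays labelled Dicer KO lay at -0.21, -0.25 and -0.33 and the controls at -0.022, -0.026 and 0.048, each relative to the control mean. Ldha, the lactate dehydrogenase subunit that favours lactate formation, read 11.07, 10.87 and 11.17 on the arrays labelled Dicer KO and 11.38, 11.47 and 11.62 on the controls. All 3 lay below every control. The difference of Ldha was -0.46 ± 0.11 (SE, limma adjusted p = 0.111), or 1.37-fold lower. Ldhb, the subunit of oxidative tissues, read 11.27, 11.26 and 10.96 against 11.41, 11.28 and 11.36, so the groups were separated by a small gap (difference -0.19 ± 0.11, adjusted p = 0.476). A further Ldhb row, of lower mean, overlapped and had a difference of -0.014.

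Pgk1, phosphoglycerate kinase, makes the first ATP of the pathway. It read 12.15, 12.12 and 12.29 against 12.35, 12.34 and 12.52, all lower, with a difference of -0.22 ± 0.092 (adjusted p = 0.332). Pgam1, phosphoglycerate mutase, read 11.10, 10.96 and 10.69 against 11.31, 11.32 and 11.13, a difference of -0.33 ± 0.12 (adjusted p = 0.245). Its lowest value was again the third array labelled Dicer KO. Pgk1 and Pgam1 had 3 rows each, of which a pair was identical in all 6 arrays, so the rows of a gene are not separate evidence. Eno2, the neuronal enolase, read 11.72, 11.73 and 11.68 against 11.95, 11.88 and 12.05. The arrays labelled Dicer KO were close together and below all controls, at a difference of -0.25 ± 0.084 (adjusted p = 0.220). Pkm, pyruvate kinase, overlapped between the groups in the row of highest mean (difference -0.13 ± 0.10). A further Pkm row, of lower mean and without RefSeq transcripts, did not overlap and had a difference of -0.19 ± 0.084. Pgk1 lies on the X chromosome, as do Pdk3, Pdha1 and Idh3g, and the labels give no sex. Eif2s3y, a Y-linked gene, was high in arrays 1 and 3 labelled Dicer KO and in control 2. With the Eif2s3y level in the model the difference of Pgk1 was -0.22. Its unadjusted limma p was then 0.0777, against 0.0438 without that term.

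The 250 bases before the transcription start are shown for 3 of these lower glycolysis and lactate genes and for Pfkl, from RefSeq windows on GRCm38.p6. Each is printed on the gene's strand, and capitals mark ACGTG on either strand. All 3 carry these letters, but Eno2 and Ldhb of the same role lack them. The windows shown therefore do not stand for the whole role. Pfkl, of upper glycolysis, lacks them too. These letters are the core of the element bound by hypoxia-inducible factors. They also lie within CACGTG, the E-box read by Myc and Max, so the motifs overlap. The windows are chr7:46845554-46845803 (plus strand) for Ldha, chrX:106186850-106187099 (plus) for Pgk1, chr19:41911621-41911870 (plus) for Pgam1 and chr10:78009808-78010057 (minus) for Pfkl.
Ldha: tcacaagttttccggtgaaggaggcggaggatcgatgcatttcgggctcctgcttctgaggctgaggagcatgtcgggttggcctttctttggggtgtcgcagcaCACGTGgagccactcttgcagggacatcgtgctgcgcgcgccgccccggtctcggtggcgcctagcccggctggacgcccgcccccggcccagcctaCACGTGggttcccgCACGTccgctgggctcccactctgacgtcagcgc
Pgk1: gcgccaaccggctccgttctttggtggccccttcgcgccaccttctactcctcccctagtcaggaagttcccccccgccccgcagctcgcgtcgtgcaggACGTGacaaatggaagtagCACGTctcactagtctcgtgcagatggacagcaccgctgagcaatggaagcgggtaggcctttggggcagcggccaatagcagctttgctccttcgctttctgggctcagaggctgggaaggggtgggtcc
Pgam1: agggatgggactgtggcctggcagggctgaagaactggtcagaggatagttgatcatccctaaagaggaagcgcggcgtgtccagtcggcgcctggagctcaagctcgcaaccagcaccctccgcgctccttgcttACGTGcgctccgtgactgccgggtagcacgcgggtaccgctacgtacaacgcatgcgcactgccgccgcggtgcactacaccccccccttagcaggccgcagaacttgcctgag
Pfkl: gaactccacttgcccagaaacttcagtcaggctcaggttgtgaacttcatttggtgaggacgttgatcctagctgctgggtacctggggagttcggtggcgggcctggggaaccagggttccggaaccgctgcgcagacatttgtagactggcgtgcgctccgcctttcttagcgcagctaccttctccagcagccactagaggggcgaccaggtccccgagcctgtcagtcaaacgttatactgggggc
The Ldha window has 3 marked stretches, of which 2 are the full CACGTG, while its second RefSeq window has none. Pgk1 has 2 and Pgam1 has 1. Pfkl has none in this window, and Tpi1, Eno2, Sucla2, Suclg1, Idh2 and Suclg2 have none in theirs. Pfkfb3, Pdk2 and Pdk3, also with an unadjusted p under 0.05, carry it, Pfkfb3 in both of its windows and Pdk2 in 1 of 2. Of the other lower glycolysis and lactate genes, Ldhb has none and Pkm has it in 1 of 2.

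Counts of the motif are given for members that lay lower and for those whose groups overlapped, in numbers too small for a comparison. Windows were found for 38 of the 40 members (57 windows, as some genes have several), and ACGTG on either strand occurred in at least 1 window of 17 of them (44.7%), against 20.0% of 17491 protein-coding genes. Per window the share was 45.6%, against 16.6% of all 32851 windows in the table. Some windows of Ogdh and of Aldoa overlap and hold the same site, so the members' share per window counts such a site more than once. All windows together cover 27025 genes, more than the protein-coding ones, so that background differs from the one per gene. Among the 13 members that lay lower without overlap, 5 had ACGTG (38.5%). Among the 23 with overlapping groups, 12 had it (52.2%), and of the 2 with windows that lay higher, none did. CACGTG occurred in 7 of the 38 (18.4%), against 7.61% of protein-coding genes. GGGCGG, the core letters of the GC box, also on either strand, occurred in 24 (63.2%), against 45.8%. These are matches of letters, given as descriptions without a test.

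**Figure D2:**
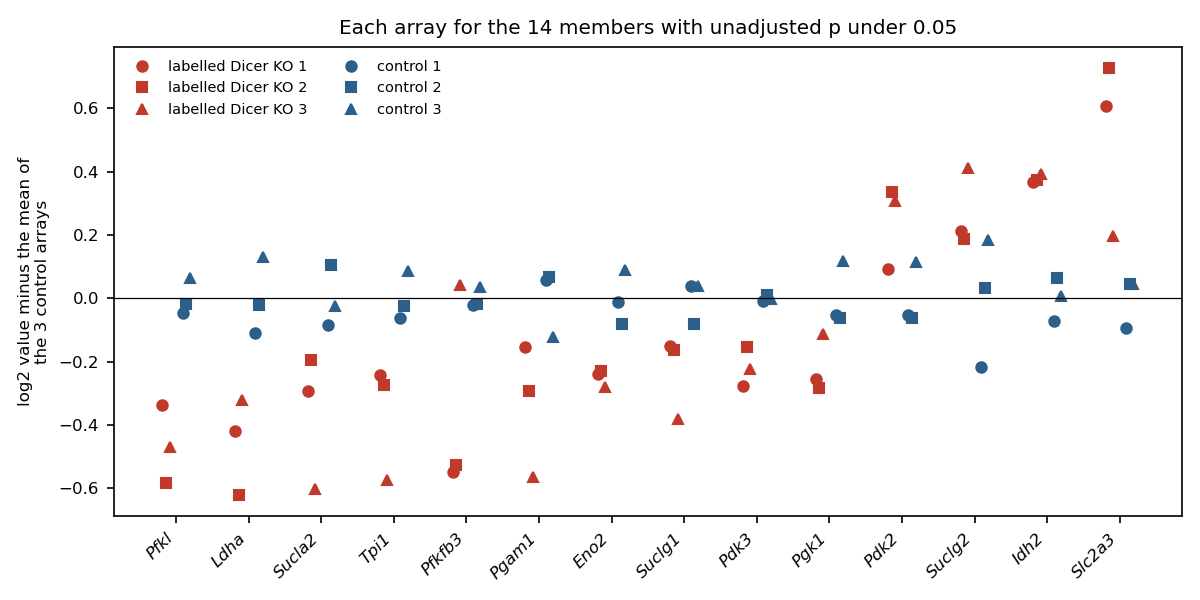
Log2 value of each array minus the mean of the 3 control arrays (y axis) for the 14 members with an unadjusted p under 0.05, ordered by difference; red marks are the arrays labelled Dicer KO and blue marks the controls, with 1 symbol per array number. The third array labelled Dicer KO sits apart from the other arrays of its group in Pfkfb3, Pgam1, Tpi1, Sucla2 and Slc2a3.

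The pyruvate dehydrogenase complex links glycolysis to the TCA cycle, and its 7 members showed differences of both signs: 5 below 0 and 2 above, with 1 lower (Pdk3) and 1 higher (Pdk2) at an unadjusted p under 0.05. With 7 genes, these counts cannot be told from the shares of all genes, 7.39% lower and 7.01% higher. The catalytic subunits overlapped between groups. Pdha1 differed by -0.15 ± 0.11, Pdhb by -0.015 ± 0.099, Dlat by 0.083 ± 0.10 and Dld by -0.068 ± 0.12. The kinases, which phosphorylate and switch off the complex, went different ways. Pdk2 read 9.98, 10.22 and 10.19 on the arrays labelled Dicer KO and 9.83, 9.82 and 10.00 on the controls, where the first overlapped with control 3 (difference 0.25 ± 0.10, limma adjusted p = 0.308). Pdk3 read 9.38, 9.50 and 9.43 against 9.65, 9.67 and 9.65. The controls were almost equal and all 3 arrays labelled Dicer KO lay below them (difference -0.22 ± 0.080, adjusted p = 0.260). Pdk1 read 9.21, 9.46 and 8.98 against 9.54, 9.40 and 9.43, with overlap through the second array labelled Dicer KO (difference -0.24 ± 0.12).

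TCA cycle genes numbered 12, of which 10 lay below 0, 2 were lower (Sucla2 and Suclg1) and 2 higher (Idh2 and Suclg2) at an unadjusted p under 0.05. Of all genes, 7.39% were lower and 7.01% higher at that level, and 12 genes are few to set against these shares. Idh2, the mitochondrial isocitrate dehydrogenase that makes NADPH, read 9.66, 9.66 and 9.68 on the arrays labelled Dicer KO and 9.22, 9.36 and 9.30 on the controls. The arrays labelled Dicer KO were nearly equal and all above the controls. The difference of Idh2 was 0.38 ± 0.081 (SE, limma adjusted p = 0.0893), or 1.30-fold. The NADH-making isocitrate dehydrogenase of the cycle, built of Idh3a, Idh3b and Idh3g, did not share that direction. Idh3a read 11.63, 11.71 and 11.55 against 11.68, 11.76 and 11.98 (difference -0.18 ± 0.10), and Idh3b and Idh3g differed by -0.097 ± 0.10 and -0.063 ± 0.091, all with overlap.

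Succinyl-CoA ligase, the step that makes ATP or GTP directly, showed both signs among the subunits of its ATP-forming and GTP-forming enzymes. Sucla2, the ATP-forming beta subunit, read 10.75, 10.85 and 10.44 on the arrays labelled Dicer KO and 10.96, 11.15 and 11.02 on the controls. It lay lower without overlap, at -0.36 ± 0.12 (SE, limma adjusted p = 0.215). Suclg2, the GTP-forming beta subunit, read 8.94, 8.91 and 9.14 against 8.51, 8.76 and 8.91, and lay higher, with the second array labelled Dicer KO almost at the level of control 3 (difference 0.27 ± 0.12, adjusted p = 0.344). A second Suclg2 row gave 0.28. Suclg1, the alpha subunit that both share, read 10.01, 10.00 and 9.78 against 10.20, 10.08 and 10.20 and lay lower without overlap (difference -0.24 ± 0.095, adjusted p = 0.303).

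The remaining TCA cycle members had smaller differences. Ogdh and Dlst, subunits of the oxoglutarate dehydrogenase complex, differed by -0.23 ± 0.12 and -0.15 ± 0.084, and Dlst did not overlap. Citrate synthase (Cs) differed by -0.031 ± 0.12, fumarase (Fh1) by -0.13 ± 0.10 and mitochondrial malate dehydrogenase (Mdh2) by -0.035 ± 0.090. In the malate-aspartate shuttle, which carries cytosolic reducing power into mitochondria, Mdh1 differed by -0.13 ± 0.093, Got1 by -0.068 ± 0.11 and Got2 by -0.16 ± 0.079. Of these 3, Got2 alone did not overlap, with 11.20, 11.23 and 11.14 against 11.34, 11.32 and 11.39. Pcx, pyruvate carboxylase, which refills the cycle mainly in astrocytes, differed by 0.034 ± 0.086. None of these 4 shuttle and refilling genes had an unadjusted p under 0.05.

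For 9 pairs of isozymes or subunits, some on opposite sides of 0 and some, such as Pfkl and Pfkp or Ldha and Ldhb, both below it, the log2 ratio was taken within each array and set against the mean control ratio. These pairs were chosen after their values were seen, so no test is given. The ratio of Slc2a3 to Slc2a1 lay at 0.48, 0.56 and 0.54 on the arrays labelled Dicer KO, against -0.13, -0.10 and 0.23 on the controls. The third array labelled Dicer KO, which was low for both transporters, did not stand apart in their ratio. Pfkl over Pfkm lay at -0.37, -0.77 and -0.46, against 0.10, -0.022 and -0.081. Suclg2 over Sucla2 lay at 0.51, 0.38 and 1.01, against -0.13, -0.074 and 0.20. Idh2 over Idh3a lay at 0.54, 0.47 and 0.65, against 0.055, 0.11 and -0.17. In these 4 pairs the groups did not overlap. They did not overlap either for Pfkl over Pfkp, Suclg2 over Suclg1, Pdk2 over Pdk1 or Pdk2 over Pdk3, where the mean ratios of the arrays labelled Dicer KO were -0.42 ± 0.22, 0.51 ± 0.25, 0.49 ± 0.26 and 0.46 ± 0.085 (SD, n = 3). Ldha over Ldhb overlapped, at -0.35, -0.53 and 0.068 against -0.17, 0.051 and 0.12. Pfkl, Suclg2 and Pdk2 recur across pairs, so the pairs are not separate results. No share of separated ratios among other gene pairs is given, so the number of pairs apart has no background. A ratio shows that a pair differed unequally, not that either gene was unchanged.

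**Figure D3:**
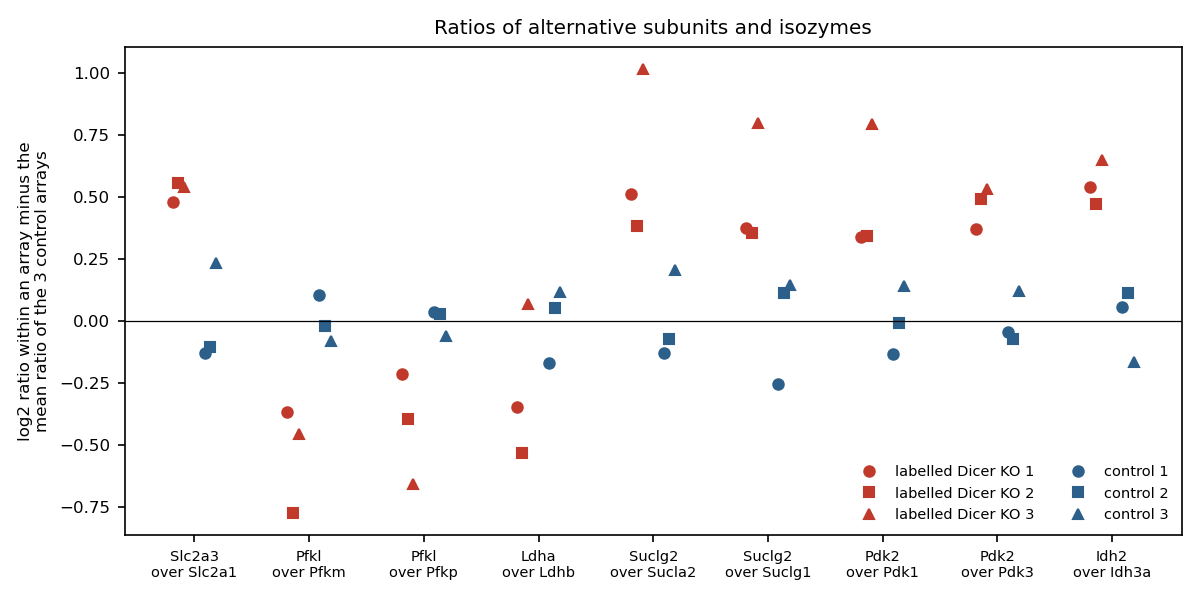
Log2 ratio of 9 pairs of isozymes or subunits within each array, minus the mean ratio of the 3 control arrays (y axis); red marks are the arrays labelled Dicer KO and blue marks the controls. The groups are apart in 8 pairs and overlap for Ldha over Ldhb, where the third array labelled Dicer KO lies at 0.068. The pairs were picked with the values known and some share a gene, so their number is a description only.

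Single arrays also differed within the groups. The third array labelled Dicer KO was the lowest of its group in 22 of the 40 members (55.0%, against 34.8% of all genes) and the highest in 12 (30.0%, against 41.4%). Control 3 was the highest control in 29 (72.5%, against 47.8%) and control 1 the lowest in 22 (55.0%, against 38.0%). Control 3 thus lay high over all genes too, by a mean of 0.036 relative to the control mean, and none of these shares was tested. Over all 40 members, the mean of the arrays labelled Dicer KO lay at -0.086, -0.055 and -0.13 relative to the control mean, and the controls at -0.048, -0.016 and 0.065. The second array labelled Dicer KO and control 1 thus lay close together. For the excitatory neuron markers, which also include the neurons that carry Cre, the same arrays lay at -0.074, -0.055 and -0.13, against -0.055, 0.045 and 0.010, and 7 of the 11 genes lay below 0. Among them Nrgn, a calmodulin-binding protein of dendrites, was called lower (-0.60 ± 0.088, limma adjusted p = 0.0413). Neurod6 (-0.45) and Emx1 (-0.19) were lower at an unadjusted p under 0.05 and Nptx1 (0.41) higher. Astrocyte markers lay at 0.14, -0.024 and 0.56, against -0.10, 0.00056 and 0.10, with 7 of 10 genes above 0, 4 of them higher at that level, and a mean level of 10.22 to 10.80 against 10.14 to 10.35. Microglial markers were highest in the third array labelled Dicer KO, at 0.56, and oligodendrocyte markers lay at 0.44 in it and at 0.45 in control 3. Markers of meningeal fibroblasts lay at 0.23, -0.061 and 0.16, against -0.054, 0.012 and 0.042, with 7 of 8 genes above 0, 3 higher and 1 lower at an unadjusted p under 0.05. Over all genes 7.39% were lower and 7.01% higher at that level, and each marker list holds few genes. The part of these marker differences in the members' values was not tested.

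**Figure D4:**
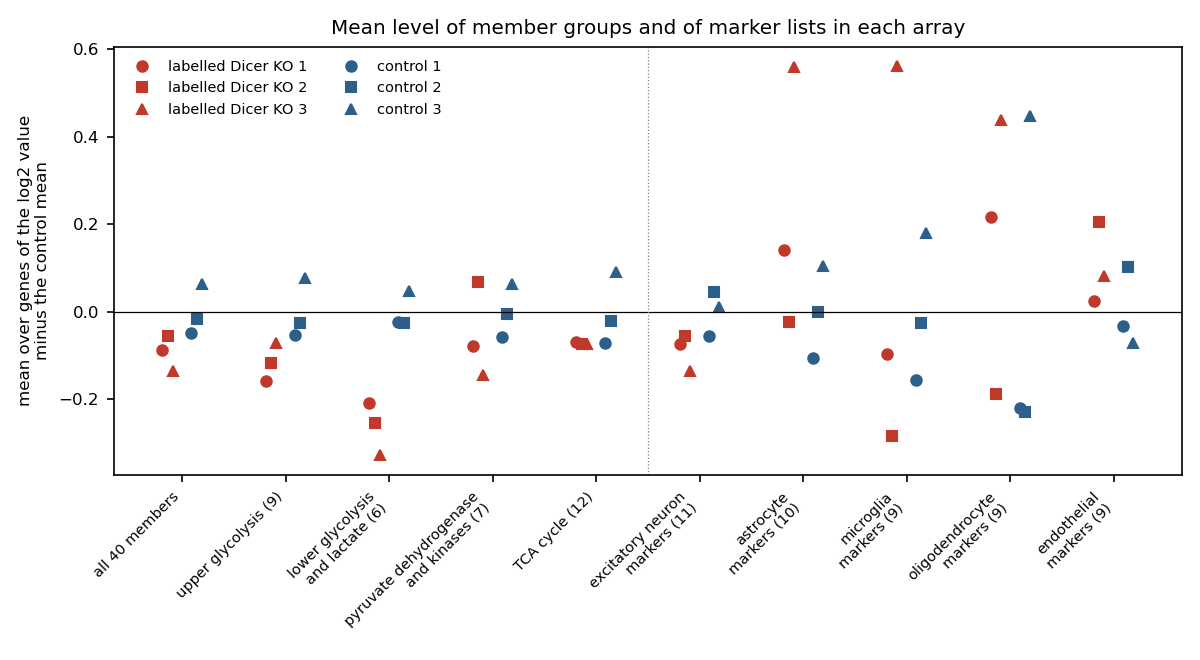
Mean over the genes of each list of the log2 value minus the control mean (y axis), for groups of members (left of the dotted line) and cell type markers (right), with 1 mark per array and the number of genes in brackets. The lower glycolysis and lactate genes lie between -0.33 and -0.21 on the arrays labelled Dicer KO, below all controls, while the third such array is the highest for astrocyte and microglial markers, at 0.56 in both.

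Other genes of the same pathways, 107 measured ones from lists drawn up with earlier results of these data known, did not lean to 1 side. Of them 55 lay below 0 and 52 above, with a median of -0.023. At an unadjusted p under 0.05, 14 were lower (13.1%, against 7.39% of all genes) and 13 higher (12.1%, against 7.01%), and limma called 0. The lists below hold few genes each, and the same shares of all genes are the background of their counts. In the list of TCA cycle, anaplerosis and shuttle genes, 5 of 22 were lower at that level and none higher, and in the list of transcription factors and other regulators of glycolysis genes 5 of 21 were higher and 1 lower. The pentose phosphate branch had 2 of 7 lower and none higher. Glycogen genes (1 lower and 1 higher of 12), further glycolytic isozymes and gluconeogenic genes (2 lower and 3 higher of 24) and transporters (2 lower and 3 higher of 15) were divided.

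Among the lower ones, Pdp1, the phosphatase that switches the pyruvate dehydrogenase complex back on, read 11.00, 11.04 and 10.79 on the arrays labelled Dicer KO and 11.51, 11.62 and 11.50 on the controls. No arrays overlapped, and the difference of -0.60 ± 0.095 narrowly missed the threshold (limma adjusted p = 0.0504). It was called in 6 of the 15 alternatives, whose adjusted p ran from 0.00677 to 0.208. Hkdc1, a hexokinase-like gene, read 7.49, 7.26 and 7.03 against 8.12, 8.31 and 7.94, also without overlap. Its difference was -0.86 ± 0.14 (adjusted p = 0.0510), and it was called in 5 alternatives, with an adjusted p from 0.0112 to 0.254. Both enzymes of the glycerol phosphate shuttle, the other route for cytosolic reducing power, lay lower. Gpd2 read 9.88, 9.50 and 9.94 against 10.24, 10.50 and 10.55 (difference -0.65 ± 0.14, adjusted p = 0.0878), and Gpd1 differed by -0.48 ± 0.10 (adjusted p = 0.0878). The sugar transporters Slc2a6 (-0.42) and Slc2a5 (-0.41), the malic enzyme Me3 (-0.42), the citrate-cleaving enzyme Acly (-0.39) and the pentose phosphate enzymes Taldo1 (-0.37) and Rpe (-0.28) lay lower too. Ogdhl (-0.31), Pgm2l1 (-0.26), Gyg (-0.25), the primer of glycogen, and Esrra (-0.24), a nuclear receptor that drives mitochondrial genes, completed the 14.

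Among the higher ones, Txnip, which is induced by glucose and restrains its uptake, read 9.60, 9.33 and 9.36 on the arrays labelled Dicer KO and 8.40, 8.69 and 9.05 on the controls. The groups did not overlap, and the difference was 0.72 ± 0.16 (limma adjusted p = 0.0939). Slc16a1, the lactate and pyruvate carrier MCT1, read 9.81, 10.03 and 10.02 against 9.23, 9.02 and 9.78, a difference of 0.61 ± 0.18 (adjusted p = 0.174). Pgm2, a phosphoglucomutase, read 8.33, 8.87 and 8.40 against 7.94, 8.07 and 7.98, a difference of 0.54 ± 0.14 (adjusted p = 0.134). Both separated, although control 3 came close for Slc16a1. Prkaa2, a catalytic subunit of the energy sensor AMPK, differed by 0.41, Slc2a12 by 0.33, Slc2a4 (the insulin-responsive transporter GLUT4) by 0.29 and Pgm1 by 0.28. Pygb, the brain glycogen phosphorylase, differed by 0.27, Pdpr by 0.26 and Pfkfb4 by 0.23. Arnt (0.31), the partner of hypoxia-inducible factors, Max (0.24) and Myc (0.22) completed the 13, whereas Hif1a had a difference of 0.18 ± 0.099 and overlapped.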

How the data were processed

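The deposited table holds log2 values of 35557 array rows in 6 arrays, which the authors made with RMA and limma, per the submitters' processing notes. The sources used here do not give versions or the background step. RMA compresses the differences of dim transcripts, and it gives all arrays similar quantiles, so a shift shared by most genes could not be seen. A platform table gave 21789 rows 1 gene symbol. The 1621 rows with several and the 12147 with none were left out. For 21698 rows the symbol was taken from GRCm38.p6 through the gene identifier, whether or not it changed. The row of highest mean stood for a gene with several, which left 19938 genes. Any pair of arrays differed in at least 35523 rows.

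The labels give the groups and name the arrays as biological replicates, and p-values reflect only how these animals vary. A model with group alone was fitted to all genes in limma 3.58.1 (R 4.3.3; lmFit, eBayes, two-sided), and p-values were adjusted by Benjamini-Hochberg at a threshold of 0.05. With 3 arrays a group, the smallest two-sided p of an exact permutation test is 0.1, so none was run. The steps were tested on simulated data. Members and gene lists were chosen with earlier results of these data known. Every member is named with its difference. Values per array are given for members with an unadjusted p under 0.05, for the 6 largest differences in each direction and for their isozymes. Of other pathway genes, those with an unadjusted p under 0.05 are named, and values of Hif1a and the arrays of Got2 and Aldoa were added after they were seen. Alternatives were a block for array number, each array left out, median centring, a second quantile normalization, the mean of all rows of a gene, no dim genes, a trended and robust prior, array weights, the level of Eif2s3y as a term and an unmoderated test.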

Additional observations from a re-analysis of the deposited data

How the results depend on the processing

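Of the 40 members, 29 kept the direction of their difference in all 15 alternatives, and 6 (Eno2, Idh2, Ldha, Pfkl, Slc2a3 and Tpi1) had an unadjusted p under 0.05 in each. The members' median difference stayed between -0.15 and -0.084 with 1 array left out. The other 11 changed sign somewhere. With 1 array left out, the difference ranged from -0.109 to 0.150 for Slc2a1, -0.128 to 0.0306 for Hk2, -0.00476 to 0.141 for Pfkm, -0.154 to 0.0342 for Pfkp, -0.0759 to 0.0573 for Pdhb, -0.152 to 0.0653 for Dld, -0.152 to 0.0600 for Cs, -0.115 to 0.00555 for Idh3g, -0.101 to 0.0134 for Mdh2, -0.134 to 0.0327 for Got1 and -0.0128 to 0.0685 for Pcx. A second quantile normalization gave 0.00885 for Slc2a1 and 0.0169 for Pdhb. Array weights gave 0.0618 for Slc2a1, 0.00127 for Dld and 0.0370 for Got1. With the Eif2s3y level as a term Pdhb was 0.0148 and Mdh2 0.00752.

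Calls depended more on the setting, and the cause was not tested. Over all genes 56 were called, against 215 with the array number as a replicate block, 121 without the dimmest genes, 1116 with array weights, and 0 both with the Eif2s3y term and in an unmoderated test. With 1 array left out the count ranged from 0 to 129, the 129 being without the third array labelled Dicer KO and the 0 without any other. Array weights were 5.18 for the first array labelled Dicer KO and 0.426 to 1.20 for the others, so that fit leans on 1 animal. That fit called 5 members (Slc2a3, Pfkl, Pfkfb3, Ldha and Idh2) and gave 4727 genes an unadjusted p under 0.05, against 2871. Leaving out 1 array called 0 to 2 members. Members with an unadjusted p under 0.05 numbered 14, against 15 with the replicate block and 7 to 12 with 1 array left out (5 to 9 lower and 2 to 5 higher); the unmoderated test left 2 higher. Of the other pathway genes, limma called 2 with the replicate block, 1 after a second quantile normalization, 1 with the mean of all rows, 2 without the dimmest genes, 2 with the trended prior, 12 with array weights and 0 to 1 with 1 array left out. Whether arrays of the same number share more than the number is not known from the labels and was not tested. Deviations of arrays of the same number correlated at 0.0895, 0.166 and 0.294. Those of arrays of different number correlated at -0.229 to 0.0943, the highest being control 1 with the second array labelled Dicer KO. With 3 animals a group, signal over background unknown and no detection call used here, small differences of single members are not detectable.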

Other observations

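Rows that name several genes were left out of the tests. Of these, 25 rows name Gapdh, the glycolytic dehydrogenase often used as a reference transcript. All 25 had a difference above 0, between 0.013 and 0.050. Each of these rows names at least 1 other gene, so they are not given as a measurement of Gapdh alone. Whether the rows read the same sequence was not tested, so they do not count as 25 separate measurements.

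Aldoc, the aldolase isozyme of astrocytes, had a difference of 0.062 ± 0.094, against -0.18 ± 0.090 for Aldoa. Sdha, the catalytic subunit of succinate dehydrogenase, had a difference of 0.053 ± 0.10, and Slc16a3, the lactate carrier MCT4, one of -0.20 ± 0.12 (limma, SE). The groups overlapped in all 3. These genes were chosen after their values were seen.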
